A study of Mus musculus with 49 samples.

Results

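Macrophages lacking Elf4 were compared with wild-type (WT) macrophages after 16 h of lipopolysaccharide (LPS), a component of the bacterial outer membrane that Toll-like receptor 4 senses. The comparison takes the 3 libraries labelled KO and the 3 labelled WT at 16 h, which are 6 of the 49 samples of the series. The cells were bone marrow-derived macrophages (BMDM) of C57BL/6 mice, cultured for 7 days with M-CSF, and LPS was given at 100 ng/ml to both genotypes. The KO mice are given as Elf4-/-, and the labels do not say how the allele was made. Libraries of the same genotypes at 0 h and 4 h, 3 each, are used to place the 16 h differences in time, and the remaining samples are T cell experiments not used here. The file header gives each of the 18 macrophage libraries its own number, which is also in the sample's description. The labels give no sex or age.

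ELF4 is a transcription factor of the ETS family, whose members bind DNA at GGAA cores. Macrophages answer LPS with an early wave of cytokine genes and, through secreted type I interferon acting back on the cells, with a second wave of interferon-stimulated genes. Those genes are switched on by a complex with STAT2 and IRF9 that binds the interferon-stimulated response element, and they include antiviral effectors, guanylate-binding proteins and the machinery of MHC class I.

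Messenger RNA was measured as CPM, that is, the reads of a gene as a share of all reads of its library, in counts per M reads. CPM is not divided by gene length, so levels are compared between libraries and not between genes. Steps between low CPM values correspond to 13.1 to 16.8 M reads in each of the 6 libraries. Differences are KO minus WT on the log2(CPM + 1) scale, which understates the change of genes near 1 CPM, and a gene was called higher or lower at a Benjamini-Hochberg adjusted p below 0.05 with limma over 11184 genes. Group values are means ± SD with n = 3. An exact permutation test of 3 against 3 libraries cannot go below 0.1, so single genes rest on limma, which shares the spread among genes.

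Elf4 itself, on the X chromosome (chrX:48411049-48463132, GRCm38.p6), stood at 129, 134 and 131 CPM in the WT libraries and 32.6, 27.7 and 28.4 CPM in the KO libraries (log2 difference -2.12 ± 0.078 (SE), adjusted p = 7.23e-06). The groups were far apart, and a residual level was found in KO cells before LPS as well (22 ± 3.23 against 105 ± 7.96 CPM) and at 4 h (17.2 ± 2.63 against 68.7 ± 5.07 CPM). What the remaining reads stand for was not tested.

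The cells carried macrophage transcripts in every library. All 8 macrophage markers listed were measured, among them Csf1r, the M-CSF receptor, Adgre1, which encodes F4/80, and Itgam, which encodes CD11b. Their summed level ran from 19960 to 21248 CPM in WT and from 25104 to 30813 CPM in KO libraries, with 3 markers higher (Lyz2, and Csf1r and Adgre1, which lost their calls after the scaling described below) and 2 lower (Cd68 and Fcgr1). Without WT1 or WT3 1 was higher and 1 lower, Fcgr1 not being called without 3 libraries (adjusted p up to 0.0796 without WT1) and Adgre1 not without 4 (up to 0.171 without WT1). Markers of other blood cells were low. All 5 B cell markers in the table, 4 of 7 neutrophil markers, 5 of 7 dendritic cell markers and 3 of 4 T and NK cell markers stayed under 1 CPM in all 6 libraries, with summed levels of at most 1.15, 6.81, 6.77 and 8.82 CPM. Neutrophil markers summed to 1.45 to 1.93 CPM in WT and 3.44 to 6.81 CPM in KO libraries. The 4 endothelial markers in the table summed to 29.7 to 41.1 CPM in WT and 9.18 to 16.9 CPM in KO libraries, of which most was Kdr (29 ± 5.29 and 8.35 ± 2.51 CPM, -1.71, adjusted p = 0.00111).

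Stromal transcripts were more abundant. The 12 fibroblast and stromal markers summed to 628.5, 831.2 and 1148 CPM in the WT libraries and to 1629, 3240 and 1022 CPM in the KO libraries, with KO2 highest and KO3 inside the WT range. Of the 11 tested, 2 were higher in KO (Col3a1 and Sparc) and 0 lower, with a median log2 difference of 0.89, and the same list had medians of 0.83 at 0 h and 0.86 at 4 h. Without KO3 all 11 were higher, and without WT1 0 were. In whole cultures, fewer cells of a type and less RNA per cell cannot be told apart. The part of these cells in any result below was not tested, and some of the counts are also given without KO2.

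In the principal components of the 6 libraries, the first (70.4% of the variance) separated the genotypes, with WT libraries from -21.3 to -17.4 and KO libraries at 11.7, 26.7 and 18.3. The second (17.3%) set KO3 (18.9) apart from KO2 (-12.8). KO libraries varied more among themselves, with a median SD of 0.132 log2 over 9097 genes against 0.0785 in WT. KO1 was seldom the most extreme KO library, being so for 103 of the 1198 genes that fell and 208 of the 2638 that rose.

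A large part of the genes differed in level between KO and WT libraries at 16 h. Of 11184 genes, 2638 (23.6%) were higher and 1198 (10.7%) lower in KO macrophages, with a median of 0.12 log2 over all genes. Most changes were small, and 1777 of the higher and 716 of the lower genes moved by less than 1.5-fold. Changes of at least 2-fold numbered 142 up and 149 down. Among these called genes the groups did not overlap for 2611 of the higher and 1190 of the lower. A call with 3 libraries a group favours such genes, so these counts add nothing to the calls.

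**Figure D1:**
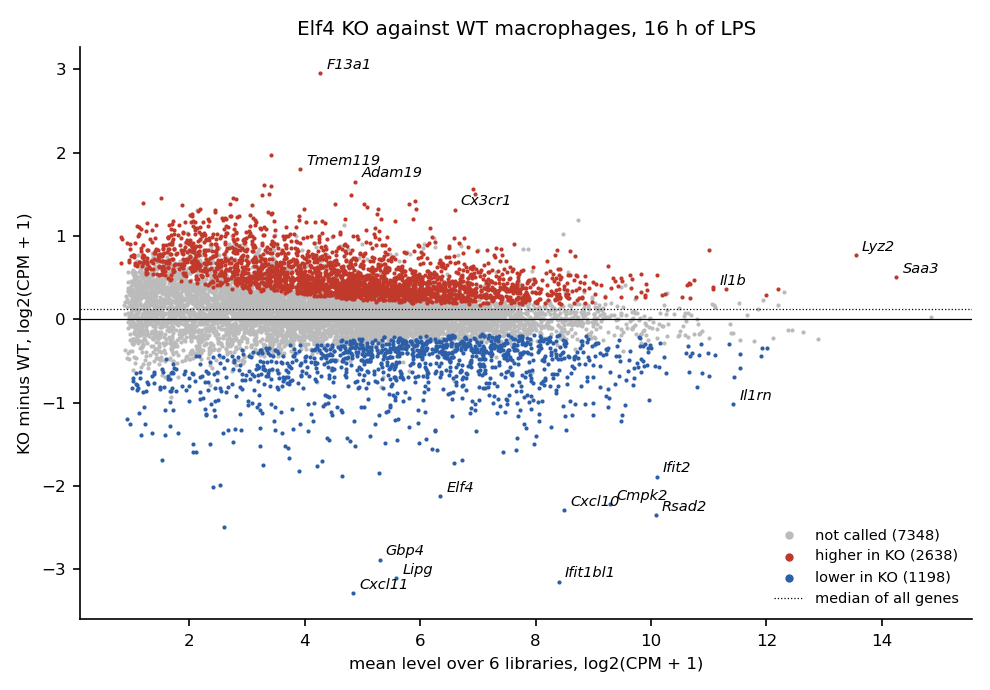
Each point is a tested gene, placed by its mean level over the 6 libraries (x, log2(CPM + 1)) and its difference between genotypes at 16 h (y, KO minus WT, log2), red where higher and blue where lower in KO. The falls of Rsad2, Cmpk2, Ifit2, Ifit1bl1 and Cxcl10, from -1.89 to -3.15, stand clear of the other genes at their level, while the median of all genes is 0.12 (dotted line).

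The split between rises and falls depended on how libraries were scaled. Median-ratio scaling, which sets the typical gene equal in all libraries, lowered the median by 0.11 log2 and gave 1463 genes higher (13.1%) and 1797 lower (16.1%), so that higher genes made up 44.9% of calls in place of 68.8%. All 1198 falls kept their call under it, and 1463 of the 2638 rises did. Of the changes of at least 2-fold, 137 rises and all 149 falls kept theirs. A gene or count that lost its call under this scaling is named as such below. The number of calls also rests on the WT libraries, being 2117 without WT1, 2289 without WT2 and 2251 without WT3 against 3836 with all, and 3209 without KO2.

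Genes that LPS turns on had more falls than rises. Genes were classed by the response of WT cells at 4 h against 0 h, in libraries that the 16 h comparison does not use. Of 546 genes induced by at least 2 log2, 51.6% were lower in KO at 16 h and 8.79% higher, with a median of -0.37 log2. Of 1421 genes repressed by as much, 5.98% were lower and 34.9% higher, with a median of 0.25 log2. The 8918 genes of neither class had 9.09% lower and 23% higher, close to the shares over all genes. After median-ratio scaling the induced genes had 57.5% lower and 5.13% higher, and the repressed genes 9.5% lower and 22.8% higher.

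Interferon-stimulated genes fell almost throughout. Over 4 lists of antiviral effectors and immunity GTPases, 79 of 89 tested genes were lower and 2 higher, with a median of -0.71 log2, against 10.7% lower over all genes. The counts were 77 lower and 3 higher without KO2, between 74 and 82 lower when any single library was left out, 0 higher without WT1 or WT2, and 81 lower and 1 higher after median-ratio scaling.

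The promoters of several such genes carry the response element in the letters GAAANNGAA, in which N is any base, searched on both strands from 250 bases before to 50 bases after the start of the gene. Of 8991 tested genes matched to a RefSeq promoter, 7.71% hold it, and of all 27025 RefSeq promoters given 8.57%. The share was 14.8% among 952 genes that fell, 36.7% among the 109 that fell by at least 1 log2, 6.7% among 2134 genes that rose and 6.93% among those not called. All 9 matched guanylate-binding protein and GTPase genes hold it, 9 of 12 IFIT and OAS genes and 17 of 42 other antiviral genes. The letters TTCNNNGAA of the gamma-activated site were in 6.95% of tested genes, 8.82% of those that fell and 6.98% of those that rose. Among genes that fell by at least 1 log2 the share was 16.5%. The site was in 6 of the 9 GTPase genes, 2 of 12 IFIT and OAS genes and 7 of 42 other antiviral genes. The ETS letters CCGGAAGT were in 7.35% of the promoters of genes that fell, in 7.92% of those that rose and in 10.1% of those not called. These are matches of letters in a window and say nothing of binding. Where a gene has several starts in the table, the first listed was used, and 80.4% of the tested genes were matched.

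The promoters of Rsad2, Cxcl10, Ifit1bl1, Gbp5 and Stat2 show the match in its place. The first listed starts of Cmpk2, Ifit2, Tnfsf10, Il18bp and Il1rn, which fell too, were searched in the same way and held no match. The 5 promoters printed come from RefSeq on GRCm38.p6, run 5′ to 3′ on the strand of the gene, and have the matched letters in capitals, on either strand. Rsad2 encodes viperin, an antiviral enzyme, and lies at chr12:26456403-26456702 on the minus strand. Cxcl10, a chemokine for T cells, is at chr5:92348840-92349139 on the minus strand. Ifit1bl1, an IFIT family gene, is at chr19:34601919-34602218 on the minus strand and holds 2 matches. Gbp5, a guanylate-binding protein gene, is at chr3:142496684-142496983 and Stat2, a signal carrier of type I interferon, at chr10:128270248-128270547, both on the plus strand.
Rsad2: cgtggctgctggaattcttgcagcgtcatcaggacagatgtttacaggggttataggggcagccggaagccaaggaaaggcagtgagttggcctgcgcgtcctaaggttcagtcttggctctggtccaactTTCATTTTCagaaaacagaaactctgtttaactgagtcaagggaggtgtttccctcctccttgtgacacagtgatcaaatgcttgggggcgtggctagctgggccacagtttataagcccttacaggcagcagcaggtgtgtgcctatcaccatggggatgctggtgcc
Cxcl10: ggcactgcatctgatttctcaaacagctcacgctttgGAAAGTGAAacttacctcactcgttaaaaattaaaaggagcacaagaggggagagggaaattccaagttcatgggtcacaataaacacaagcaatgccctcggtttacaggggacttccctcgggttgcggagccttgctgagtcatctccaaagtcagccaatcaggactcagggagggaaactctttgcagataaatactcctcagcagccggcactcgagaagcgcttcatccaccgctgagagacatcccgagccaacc
Ifit1bl1: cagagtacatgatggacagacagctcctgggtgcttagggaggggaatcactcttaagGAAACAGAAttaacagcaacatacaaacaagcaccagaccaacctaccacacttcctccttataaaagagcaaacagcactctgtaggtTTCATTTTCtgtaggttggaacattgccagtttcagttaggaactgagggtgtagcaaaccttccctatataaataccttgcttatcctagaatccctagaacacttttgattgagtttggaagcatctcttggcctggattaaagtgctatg
Gbp5: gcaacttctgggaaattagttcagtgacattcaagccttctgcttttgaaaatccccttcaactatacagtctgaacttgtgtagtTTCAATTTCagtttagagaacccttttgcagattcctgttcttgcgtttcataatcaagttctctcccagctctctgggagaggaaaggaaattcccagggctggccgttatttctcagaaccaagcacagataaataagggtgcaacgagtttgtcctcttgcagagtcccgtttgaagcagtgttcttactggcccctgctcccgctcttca
Stat2: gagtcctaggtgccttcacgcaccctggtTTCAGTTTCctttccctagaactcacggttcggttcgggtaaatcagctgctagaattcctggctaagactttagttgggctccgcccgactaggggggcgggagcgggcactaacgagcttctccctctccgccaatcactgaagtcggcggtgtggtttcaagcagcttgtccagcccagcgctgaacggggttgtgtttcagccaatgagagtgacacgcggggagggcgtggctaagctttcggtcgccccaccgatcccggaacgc

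Rsad2 was at 1784, 1739 and 1883 CPM in the WT libraries and 508, 314 and 273 CPM in the KO libraries (log2 difference -2.35 ± 0.19 (SE), adjusted p = 0.000449). The groups were far apart, with KO1 nearest to WT. Its neighbour on chromosome 12, Cmpk2, a mitochondrial nucleotide kinase gene that is induced with it, fell alike, from 1028 ± 62.5 to 226 ± 71.4 CPM (-2.22, adjusted p = 0.000447). The influenza resistance GTPase gene Mx1 fell (-1.4, adjusted p = 0.000665), and the pyrimidine nucleotidase gene Nt5c3 (-1.34, adjusted p = 0.000288). In this list of 50 other antiviral genes 43 fell and 2 rose.

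The IFIT proteins, which bind foreign RNA, and the OAS enzymes, which sense double-stranded RNA, were lower for 13 of 15 genes, with a median of -0.88 log2. Ifit1bl1 was at 650.4, 536 and 606 CPM in the WT libraries and 130.2, 43.8 and 51.2 CPM in the KO libraries (log2 difference -3.15 ± 0.33 (SE), adjusted p = 0.000906), and KO1 held the most of the KO libraries. Ifit2 fell from 1709.9 ± 95.9 to 478 ± 163 CPM (-1.89, adjusted p = 0.000803) and Ifit3 from 995 ± 50.7 to 430.3 ± 78.3 CPM (-1.22, adjusted p = 0.000803). Within the OAS family the changes were uneven. Oasl1 fell (-1.15, adjusted p = 0.00115), while Oasl2 was at 700.2 ± 15 CPM in WT and 659 ± 35.5 CPM in KO (-0.089, adjusted p = 0.339) with overlapping groups.

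All 16 tested guanylate-binding protein and immunity-related GTPase genes, which attack vacuoles of intracellular microbes, were lower in KO, under every left-out library and after scaling as well. Their median was -1.15 log2. Gbp4 held 67.8, 60.8 and 74.9 CPM in the WT libraries and 12.8, 5.01 and 8.7 CPM in the KO libraries (log2 difference -2.88 ± 0.25 (SE), adjusted p = 0.000612). Gbp2 held 1078, 887 and 1007 CPM in the WT libraries and 564, 382 and 411 CPM in the KO libraries (-1.15, adjusted p = 0.00124), with no overlap. The weakest of the family was Irgm1 (-0.56, adjusted p = 0.0023). Of the Schlafen genes, which restrict viral replication and cell growth, 7 of 8 fell, led by Slfn4 (-1.44, adjusted p = 0.00149) and Slfn9 (-1.29, adjusted p = 0.00189). Tgtp1 and Tgtp2, Oas1 genes, Ifit3 and Ifit3b and several Gbp and Slfn genes have near-identical copies, among which the authors' counting could have divided reads.

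A few interferon-stimulated genes did not follow. The IFITM genes, which block viral entry at membranes, had Ifitm3 at 1565, 1622 and 1491 CPM in the WT libraries and 1522, 1414 and 1692 CPM in the KO libraries (-0.019, adjusted p = 0.887), with overlapping groups. Ifitm1 rose from 5.13 ± 1.48 to 14.4 ± 6.02 CPM (1.26, adjusted p = 0.0129, 0.0561 without WT1 and 0.0505 without WT2), and Ifitm2 from 550.4 ± 24.9 to 771 ± 171 CPM (0.47, adjusted p = 0.0274), a call lost after scaling and without any of WT1, WT2 or WT3. Parp14 was not called (-0.25, adjusted p = 0.0912), though it was after median-ratio scaling (adjusted p = 0.0258), and Ifi27l2a was not (-0.14, adjusted p = 0.254).

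**Figure D2:**
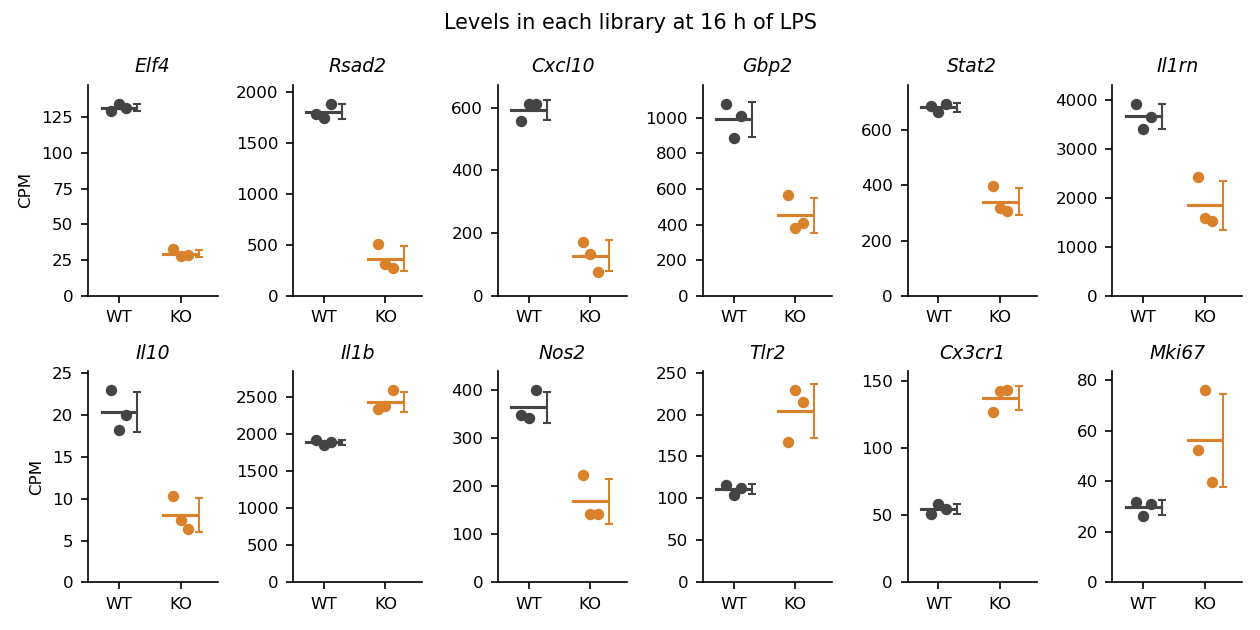
Each dot is 1 library at 16 h (y, CPM, linear axis from 0), with a bar at the mean of 3 and an error bar of 1 SD beside it, WT in grey and KO in orange. In all 12 genes the libraries of the genotypes do not overlap, with KO below WT for Elf4, Rsad2, Cxcl10, Gbp2, Stat2, Il1rn, Il10 and Nos2 and above it for Il1b, Tlr2, Cx3cr1 and Mki67.

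Upstream of these effectors the pattern was mixed. Of 13 genes of interferon reception and signal transfer, 4 fell and 2 rose, against 10.7% lower over all genes, and the rises numbered 0 without WT1 and 1 without WT2 or WT3. After median-ratio scaling 7 were lower and 1 higher. Stat2 held 686, 665 and 696 CPM in the WT libraries and 399, 319 and 307 CPM in the KO libraries (log2 difference -1.01 ± 0.099 (SE), adjusted p = 0.000734), and the groups did not overlap. The receptor-associated kinase gene Tyk2 fell (-0.50, adjusted p = 0.00373) and the receptor brake Usp18 (-0.80, adjusted p = 0.00105). The receptor genes Ifnar1 (-0.07, adjusted p = 0.399) and Ifnar2 (-0.022, adjusted p = 0.816) and the kinase gene Jak2 (0.013, adjusted p = 0.899) were not called, with overlapping groups, and neither was Irf9 (-0.13, adjusted p = 0.209), a partner of STAT2. Ifngr1, a chain of the interferon gamma receptor, rose (0.46, adjusted p = 0.0192), a call lost after scaling and without any of 3 libraries (adjusted p up to 0.0696 without WT3). The cytokine signalling inhibitor gene Socs1 rose (0.48, adjusted p = 0.0172, 0.0679 without WT1).

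Among interferon regulatory factors, which carry the signal to and from interferon genes, Irf7 was at 2301, 2288 and 2313 CPM in the WT libraries and 1607, 1259.8 and 1566 CPM in the KO libraries (log2 difference -0.65 ± 0.10 (SE), adjusted p = 0.00297), Irf1 fell (-0.64, adjusted p = 0.00236) and so did Irf5 (-0.63, adjusted p = 0.00135). The 8 tested factors had 3 falls and 1 rise, against 10.7% lower and 23.6% higher over all genes. After scaling they had 6 falls and 1 rise. Irf8, a factor of macrophage development, went the other way, from 141 ± 2.4 to 179.7 ± 12 CPM (0.35, adjusted p = 0.00616), after having been lower at 4 h (-0.83, adjusted p = 0.00578). That change of direction passed the test of the difference between 16 h and 4 h (1.17, adjusted p = 0.00203). The interferon beta gene Ifnb1 was at most 0.284 CPM in any 16 h library and was not tested.

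Nucleic acid sensors fell with the effectors, 15 of 18 lower and 1 higher (14 and 1 without KO2), with a median of -0.56 log2. Over all genes 10.7% were lower and 23.6% higher. The double-stranded RNA receptor gene Tlr3 held 88.1, 77.5 and 84.7 CPM in the WT libraries and 46.5, 39.1 and 32.1 CPM in the KO libraries (log2 difference -1.08 ± 0.12 (SE), adjusted p = 0.00105). The DNA-sensing pyrin family genes Mndal (-1.21, adjusted p = 0.000752), Ifi205 (-1.16, adjusted p = 0.00137) and Ifi203 (-0.99, adjusted p = 0.00128) fell too. The RNA sensor gene Ifih1, which encodes MDA5, fell as well (-0.65, adjusted p = 0.00184). Cgas, the cytosolic DNA sensor, was at 16.2 ± 1.14 and 15.9 ± 1.65 CPM (-0.027, adjusted p = 0.863). Mavs, the adaptor of the RNA sensors, was higher (0.36, adjusted p = 0.0118), a call lost after scaling and without WT3 (adjusted p = 0.0505).

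The 3 ligands of CXCR3, chemokines that draw T and NK cells, had the largest falls of the chemokines listed. Cxcl10 was at 557, 613 and 611 CPM in the WT libraries and 173, 135 and 75.8 CPM in the KO libraries (log2 difference -2.28 ± 0.24 (SE), adjusted p = 0.000906), and Cxcl11 at 51.9, 50.1 and 49.3 CPM in the WT libraries and 8.72, 4.79 and 1.61 CPM in the KO libraries (log2 difference -3.28 ± 0.38 (SE), adjusted p = 0.00105). In both genes KO3 was lowest and KO1 nearest to WT. Cxcl9 fell from 177 ± 5.64 to 71.5 ± 21.4 CPM (-1.34, adjusted p = 0.00177). The 3 genes are neighbours on chromosome 5, with Cxcl9 at chr5:92321331-92328079 and Cxcl11 at chr5:92359544-92363296.

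Of 13 other monocyte and lymphocyte chemokines 5 fell and 1 rose, against 10.7% and 23.6% over all genes. The monocyte chemokine gene Ccl2 fell from 616 ± 69.2 to 313 ± 99 CPM (-1.02, adjusted p = 0.00542), Ccl7 (-1.15, adjusted p = 0.0111, 0.0504 without WT1) and Ccl4 (-0.96, adjusted p = 0.0116) with it, and Cxcl14 rose (0.78, adjusted p = 0.0155, 0.0531 without WT1). Ccl5, which draws T cells and monocytes, held 3814 ± 245 CPM in WT and 3209 ± 608 CPM in KO (-0.26, adjusted p = 0.168) with overlapping groups. Without WT1 the falls numbered 3, and without KO2 or KO3 the rises numbered 2.

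A list of neutrophil chemoattractants and related genes, such as Pf4 and Csf3, had 9 genes tested. Of these 1 fell and 1 rose, against 10.7% lower and 23.6% higher over all genes. Of 9 genes Cxcl2 was lower, at 103, 94.2 and 90.9 CPM in the WT libraries and 71.7, 73.6 and 70.4 CPM in the KO libraries (-0.41, adjusted p = 0.00362), and Pf4 was higher (0.92, adjusted p = 0.00129). Cxcl1 held 9.8, 12.5 and 10.8 CPM in the WT libraries and 14, 21.9 and 13.5 CPM in the KO libraries (0.51, adjusted p = 0.0553), above WT in each KO library but past no threshold. Csf3, the neutrophil growth factor gene, overlapped between groups (0.17, adjusted p = 0.69). The list had 6 genes higher when KO3 was left out. At 4 h its median was 0.73 log2 with 4 members higher, and Cxcl2 fell at 16 h relative to 4 h (-1.05, adjusted p = 0.0234).

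The IL-1 family divided. Il1rn encodes the secreted antagonist that occupies the IL-1 receptor, and it held 3924, 3408 and 3659 CPM in the WT libraries and 2419.7, 1587 and 1535 CPM in the KO libraries (log2 difference -1.02 ± 0.17 (SE), adjusted p = 0.00315), the largest loss in CPM of any called gene. Il1b, which encodes the agonist IL-1 beta, held 1928, 1856 and 1894 CPM in the WT libraries and 2347, 2383 and 2598 CPM in the KO libraries (log2 difference 0.37 ± 0.082 (SE), adjusted p = 0.0106). Il1b was above WT in each KO library, but its call was lost after scaling (adjusted p = 0.0691) and without WT2 (adjusted p = 0.0525) or WT3. The ratio of Il1rn to Il1b CPM within a library does not depend on scaling. It was 2.04, 1.84 and 1.93 in WT and 1.03, 0.666 and 0.591 in KO libraries, and the groups did not overlap. Il1a, the gene of the cell-bound agonist, fell with Il1rn (378, 276 and 322 CPM in the WT libraries and 222, 148 and 136 CPM in the KO libraries, -0.97, adjusted p = 0.00481), and the ratio of Il1rn to Il1a overlapped between genotypes (10.4, 12.4 and 11.4 in WT, 10.9, 10.7 and 11.3 in KO). Il18 fell (-0.68, adjusted p = 0.00236) together with the gene of its soluble inhibitor, Il18bp, at 137, 122 and 126 CPM in the WT libraries and 68.5, 46.9 and 56.4 CPM in the KO libraries (-1.16, adjusted p = 0.00092).

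Of 14 proinflammatory cytokine genes in all, 8 fell and 1 rose, against 10.7% and 23.6% over all genes. Their median was -0.66 log2. Il15, which sustains NK and memory T cells, fell (-1.06, adjusted p = 0.00106). Il12b, the shared subunit of IL-12 and IL-23, held 44, 40.6 and 37.1 CPM in the WT libraries and 32.3, 19.2 and 10.8 CPM in the KO libraries (-1.05, adjusted p = 0.0269), and Tnf held 199, 169.8 and 177 CPM in the WT libraries and 123, 136 and 81.1 CPM in the KO libraries (-0.71, adjusted p = 0.0128). Il6, at 24.1, 21.6 and 19 CPM in the WT libraries and 15.9, 17.9 and 6.5 CPM in the KO libraries (-0.75, adjusted p = 0.0833), was not called although its groups did not overlap, and Il23a was too low at 16 h to be tested. The count of falls was 3 without WT1, 4 without WT2 and 5 without WT3, and Tnf lost its call without WT1 (adjusted p = 0.0583), Il12b without any of WT1, WT2 or WT3 (adjusted p up to 0.0915 without WT1).

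Genes that restrain inflammation were lower for 13 of 30 and higher for 3, against 10.7% and 23.6% over all genes. After scaling 15 were lower and 2 higher. Il10, the main anti-inflammatory cytokine of macrophages, held 22.9, 18.1 and 20.02 CPM in the WT libraries and 10.3, 7.48 and 6.38 CPM in the KO libraries (log2 difference -1.25 ± 0.16 (SE), adjusted p = 0.00148). The mRNA-destabilising Zfp36, which encodes tristetraprolin, fell from 271 ± 11.8 to 156 ± 26.4 CPM (-0.80, adjusted p = 0.00168), and the phosphatase gene Dusp1, which switches off MAP kinases, from 259 ± 28.5 to 145 ± 33 CPM (-0.86, adjusted p = 0.00449). Cd274, which encodes the checkpoint ligand PD-L1, fell (-0.84, adjusted p = 0.000803). The NF-kB inhibitor gene Nfkbia (0.023, adjusted p = 0.799) and Socs3 (0.073, adjusted p = 0.43), a feedback inhibitor of IL-6 signals, were not called and overlapped between groups. Irak3, a brake of the TLR pathway, was higher (0.37, adjusted p = 0.0108, 0.0533 without WT3). The falls numbered 9 without WT1, WT2 or WT3 and 13 without KO2.

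In the TNF superfamily 5 of 17 genes fell and 3 rose, the rises being a smaller share than the 23.6% of all genes. Tnfsf10, which encodes the death ligand TRAIL, held 40.7, 34.9 and 40.04 CPM in the WT libraries and 11, 9.58 and 8.7 CPM in the KO libraries (log2 difference -1.88 ± 0.11 (SE), adjusted p = 0.000198). Tnfsf4, the OX40 ligand, fell from 5.3 ± 0.625 to 1.12 ± 0.513 CPM (-1.59, adjusted p = 0.00135). Tnfrsf1b, which encodes TNF receptor 2, fell by 1167 CPM, from 3550 ± 38.5 to 2383 ± 245 CPM (-0.58, adjusted p = 0.00361), while Tnfrsf1a, TNF receptor 1, was at 231 ± 7.5 and 212 ± 5.19 CPM (-0.13, adjusted p = 0.128). Tnfrsf21, a death receptor, rose (0.57, adjusted p = 0.00841). The rises numbered 1 without any of WT1, WT2, WT3 or KO2.

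Inflammasome and cell death genes were lower for 12 of 25 and higher for 2, against 10.7% and 23.6% over all genes. Without KO2 11 were lower and 1 higher, and after scaling 14 were lower and 0 higher. Mlkl, the pore-forming executor of necroptosis, held 166, 159 and 165 CPM in the WT libraries and 98.7, 77.2 and 68 CPM in the KO libraries (log2 difference -1.01 ± 0.12 (SE), adjusted p = 0.00107). The inflammatory caspase genes Casp4 (-0.70, adjusted p = 0.00148) and Casp1 (-0.62, adjusted p = 0.00411), the flagellin sensor gene Naip5 (-0.67, adjusted p = 0.00106) and Casp8 (-0.53, adjusted p = 0.00174) fell. Nlrp3, an inflammasome sensor gene, was not called, at 138 ± 5.38 and 147 ± 29.2 CPM (0.07, adjusted p = 0.689) and neither was the adaptor gene Pycard, at 53.3 ± 1.56 and 53.9 ± 5.97 CPM (0.0091, adjusted p = 0.946), both overlapping.

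The Toll-like receptor pathway had 9 of 27 genes lower and 2 higher, against 10.7% and 23.6% over all genes. The counts were the same without KO2, and 13 lower and 2 higher after scaling. Tlr2, the lipoprotein receptor, held 116, 104 and 112 CPM in the WT libraries and 167, 229 and 215 CPM in the KO libraries (log2 difference 0.86 ± 0.11 (SE), adjusted p = 0.00144), against the fall of Tlr3 given above. The LPS receptor Tlr4 (-0.084, adjusted p = 0.363) and its co-receptors Cd14 (-0.091, adjusted p = 0.37) and Ly96 (-0.018, adjusted p = 0.913) were not called, with overlapping groups. The adaptor genes Tirap (-0.55, adjusted p = 0.00188) and Ticam1 (-0.47, adjusted p = 0.00533) and the kinase gene Irak4 (-0.48, adjusted p = 0.0025) fell. Without WT1, 5 genes were lower, and without WT2 6.

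Antigen display was split by class. Of 23 genes of MHC class I and its peptide supply, 20 fell and 0 rose, against 10.7% and 23.6% over all genes. Their median was -0.53 log2. The class I chain genes H2-D1 (4415 ± 80.8 to 3279 ± 571 CPM, -0.44, adjusted p = 0.0292, not called without 5 of the 6 libraries and up to 0.1 without WT3) and H2-K1 (-0.42, adjusted p = 0.0471) fell. H2-K1 was just under the threshold, and its values with a library left out are not given here. The peptide transporter gene Tap1 (458, 442 and 473 CPM in the WT libraries and 312, 259 and 281 CPM in the KO libraries, -0.69, adjusted p = 0.00105), the proteasome activator gene Psme1 (-0.71, adjusted p = 0.000734) and Nlrc5, the class I transactivator (-0.67, adjusted p = 0.00318), fell too. The light chain gene B2m was not called (-0.22, adjusted p = 0.172). H2-Q6 and H2-Q7, with the largest falls of the chains (-1.26 and -0.98), are near-identical copies, and H2-Q7 lost its call without 3 libraries (adjusted p up to 0.0728 without WT3). The count of falls was 12 without WT1 or WT3, 14 without WT2 and 15 without KO1 or KO2.

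Class II genes, for display to CD4 T cells, had none of their chains called. H2-Ab1 held 59.95, 62.6 and 77 CPM in the WT libraries and 65.8, 75.3 and 185 CPM in the KO libraries (0.55, adjusted p = 0.213) and the invariant chain gene Cd74 158, 162 and 224 CPM in the WT libraries and 221, 158 and 549.9 CPM in the KO libraries (0.58, adjusted p = 0.258), and in both the groups overlapped. Among costimulators, Cd86, a ligand of CD28, held 70.7, 53.4 and 70.1 CPM in the WT libraries and 31.7, 23.2 and 27.7 CPM in the KO libraries (log2 difference -1.2 ± 0.14 (SE), adjusted p = 0.00105) and Cd40 held 90.2, 81.7 and 83.3 CPM in the WT libraries and 55.9, 50.1 and 35 CPM in the KO libraries (-0.87, adjusted p = 0.00376), while Cd80 was at 5.41 ± 0.481 and 4.58 ± 0.686 CPM (-0.20, adjusted p = 0.295). The list had 2 of 13 genes lower and 0 higher, against 10.7% and 23.6% over all genes, and 2 higher without KO2.

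The inducible nitric oxide synthase gene Nos2 held 348, 342 and 399 CPM in the WT libraries and 222, 141 and 141 CPM in the KO libraries (log2 difference -1.13 ± 0.16 (SE), adjusted p = 0.00197), and Gch1, which makes its cofactor, fell (-0.41, adjusted p = 0.00282). The itaconate enzyme gene Acod1 (-0.25, adjusted p = 0.116), not overlapping, and the arginase gene Arg1 (0.44, adjusted p = 0.119), overlapping, were not called. In prostaglandin synthesis the inducible and the constitutive cyclooxygenase moved apart. Ptgs2, the inducible enzyme, held 417, 364 and 376 CPM in the WT libraries and 298, 281 and 158 CPM in the KO libraries (-0.70, adjusted p = 0.0297, 0.104 without WT1 and not called without WT2 or WT3), and Ptgs1 held 3.62, 4.75 and 4.9 CPM in the WT libraries and 8.18, 10.1 and 12.4 CPM in the KO libraries (1.04, adjusted p = 0.00314). The terminal prostaglandin E synthase gene Ptges (0.49, adjusted p = 0.00135) and the leukotriene helper gene Alox5ap (0.65, adjusted p = 0.00337) rose. In this list of 15, 8 genes were higher and 1 lower, against 23.6% and 10.7% over all genes. After scaling 4 were higher and 2 lower. The rises numbered 4 without WT1 or WT3, 5 without WT2 or KO2, and no fall was called without WT1, WT2 or WT3.

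Alarmins and acute-phase genes leaned up, 7 higher and 3 lower of 22. S100a8, a subunit of calprotectin, held 25.5, 36.9 and 27.8 CPM in the WT libraries and 73.1, 68.8 and 98.4 CPM in the KO libraries (log2 difference 1.38 ± 0.16 (SE), adjusted p = 0.00106), and Trem1, which amplifies TLR signals in myeloid cells, 12.9, 11.1 and 10.1 CPM in the WT libraries and 20.5, 21.8 and 17.9 CPM in the KO libraries (0.76, adjusted p = 0.00269). Mmp9, which encodes a gelatinase, rose from 17.1 ± 2.47 to 48.7 ± 24.8 CPM (1.35, adjusted p = 0.00926). Saa3, a serum amyloid gene and the largest gain in CPM of any called gene, held 14864, 18219 and 15190 CPM in the WT libraries and 20292, 23261 and 25092 CPM in the KO libraries (0.51, adjusted p = 0.0404), a call lost after scaling and without 4 of the 6 libraries (adjusted p up to 0.16 without WT3). S100a9, the partner of S100a8, was at 0.852, 0.792 and 1.38 CPM in the WT libraries and 0.994, 7.18 and 2.38 CPM in the KO libraries (0.94, adjusted p = 0.124) with overlapping groups. The neutrophil marker sums given above were also higher in KO libraries, and their part in these values was not tested. The collagenase gene Mmp13 (-0.71, adjusted p = 0.0107) and the matricellular gene Thbs1 (-0.69, adjusted p = 0.00314) fell. Against 23.6% higher over all genes, this count says little about the list.

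**Figure D3:**
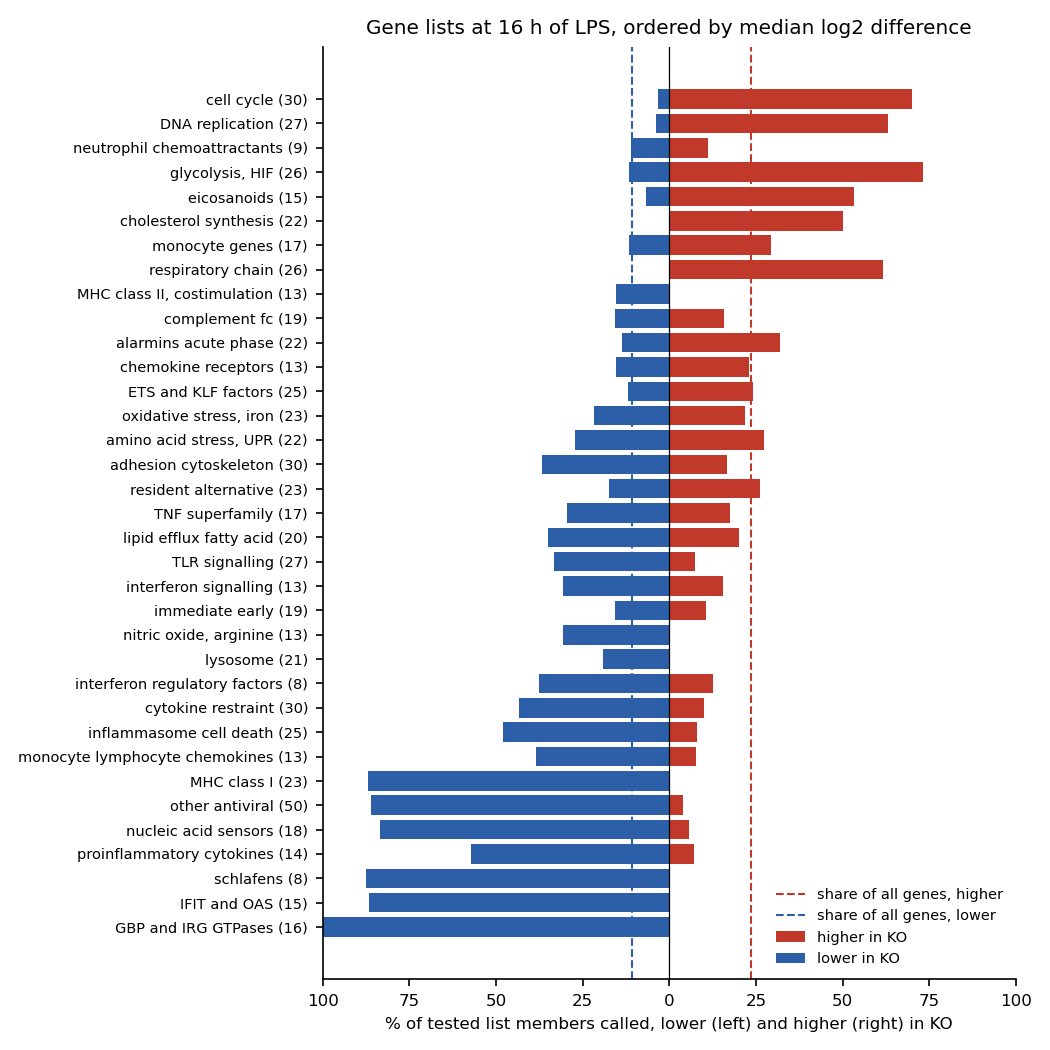
Bars give, for each gene list with at least 8 tested members (number in brackets), the share of members lower (blue, left) and higher (red, right) in KO at 16 h, in %, and dashed lines give the shares over all genes, 10.7% and 23.6%. Lists are ordered by median log2 difference, from GBP and IRG GTPases at -1.15 to cell cycle at 0.64.

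Genes of glycolysis and of the HIF-1 response rose together, 19 of 26 higher and 3 lower, against 23.6% and 10.7% over all genes. Their median was 0.39 log2 against 0.12 over all genes. Hif1a, the oxygen-regulated factor itself, held 469.5, 494 and 456 CPM in the WT libraries and 659, 816 and 750.4 CPM in the KO libraries (log2 difference 0.64 ± 0.088 (SE), adjusted p = 0.00165). The HIF target Egln3, a prolyl hydroxylase gene, rose from 9.94 ± 1.9 to 21 ± 5.06 CPM (0.99, adjusted p = 0.00605), Ddit4, which inhibits mTORC1, from 8.12 ± 1.51 to 18 ± 5.83 CPM (1.03, adjusted p = 0.00705) and Pdk1, which diverts pyruvate from mitochondria, from 46 ± 4.42 to 81.4 ± 9.36 CPM (0.81, adjusted p = 0.00137). The glucose transporter gene Slc2a1 (0.47, adjusted p = 0.00566) and Ldha, lactate dehydrogenase A (0.43, adjusted p = 0.00479), rose, while the hexokinase gene Hk3 (-0.56, adjusted p = 0.00166) and the transporter gene Slc2a3 (-0.68, adjusted p = 0.00965) fell. The rises were 13 after scaling, 18 without KO2 and 13 without WT1. Gapdh, often used as a reference gene, was 2097, 2379.9 and 2175 CPM in the WT libraries and 2773, 2826 and 2942 CPM in the KO libraries (0.36, adjusted p = 0.0142), and its call was lost after scaling and without WT1 or WT3.

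The respiratory chain and the citric acid cycle had 16 of 26 genes higher and 0 lower, against 23.6% and 10.7% over all genes. Their median was 0.25 log2. Only 1 of these rises, Idh3a, an isocitrate dehydrogenase subunit (0.72, adjusted p = 0.00105), kept its call after scaling, where 1 gene, Cycs, was lower. The rises numbered 6 without WT1, 4 without WT2, 1 without WT3 and 11 without KO2.

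Cholesterol synthesis genes rose for 11 of 22 and fell for 0, against 23.6% and 10.7% over all genes. Their median was 0.32 log2. Sqle, which makes squalene epoxide, held 8.1, 11.3 and 12.5 CPM in the WT libraries and 19.6, 23.9 and 22.5 CPM in the KO libraries (log2 difference 1.00 ± 0.15 (SE), adjusted p = 0.0025), and the groups did not overlap. The mevalonate decarboxylase gene Mvd (0.78, adjusted p = 0.00111), the cholesterol carrier gene Stard4 (0.93, adjusted p = 0.00121) and Srebf2, the master regulator (0.34, adjusted p = 0.00902), rose. The early synthase gene Hmgcs1 was not called and overlapped between groups, at 35.7 ± 3.76 CPM in WT and 35.1 ± 3.08 CPM in KO (-0.024, adjusted p = 0.873). The rises were 8 after scaling, 8 without KO2 and between 8 and 10 without any other library.

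Lipid genes beyond sterol synthesis went both ways, 4 higher and 7 lower of 20 (3 and 5 without KO2), against 23.6% and 10.7% over all genes. The fatty acid synthase gene Fasn rose from 17.5 ± 2.12 to 37.4 ± 12.7 CPM (1.00, adjusted p = 0.00792) and the desaturase gene Scd2 from 11.7 ± 4.6 to 32.3 ± 14.1 CPM (1.38, adjusted p = 0.0109). Lipg, the endothelial lipase gene, held 87.3, 71.8 and 91.2 CPM in the WT libraries and 19.96, 6.96 and 4.53 CPM in the KO libraries (log2 difference -3.11 ± 0.40 (SE), adjusted p = 0.00137). The lipid droplet gene Plin2 (-0.64, adjusted p = 0.00471), the lipoprotein lipase gene Lpl (-0.59, adjusted p = 0.00495) and the exporter gene Abcg1 (-0.56, adjusted p = 0.025) fell, while the exporter gene Abca1 rose (0.43, adjusted p = 0.0057). Without KO3 the list had 8 rises, and without WT1 or WT3 4 falls.

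Proliferation genes were higher. Of 30 cell cycle genes 21 rose and 1 fell, with a median of 0.64 log2. Of 27 DNA replication genes 17 rose and 1 fell, with a median of 0.63 log2. Over all genes 23.6% rose and 10.7% fell. Top2a, the mitotic topoisomerase gene, held 19.6, 15.3 and 15.4 CPM in the WT libraries and 40.8, 65 and 34.4 CPM in the KO libraries (log2 difference 1.38 ± 0.21 (SE), adjusted p = 0.00234), and Ccna2, cyclin A2, held 4.72, 3.24 and 3.04 CPM in the WT libraries and 8.64, 14.9 and 10.2 CPM in the KO libraries (1.38, adjusted p = 0.00244). Mki67, which encodes the Ki-67 antigen, held 31.8, 26.5 and 30.9 CPM in the WT libraries and 52.5, 76 and 39.9 CPM in the KO libraries (0.85, adjusted p = 0.0119). Rrm2, a subunit of ribonucleotide reductase, held 5.04, 5.48 and 6.63 CPM in the WT libraries and 15.3, 17.8 and 10.4 CPM in the KO libraries (1.18, adjusted p = 0.00278), and Cdc45, a part of the replicative helicase, rose (1.05, adjusted p = 0.00723). Pcna, the replication clamp gene, fell (191, 192 and 193 CPM in the WT libraries and 148, 116 and 141 CPM in the KO libraries, -0.51, adjusted p = 0.004), as did cyclin D2, Ccnd2 (-0.73, adjusted p = 0.00314). The cell cycle inhibitor gene Cdkn1a was not called (-0.14, adjusted p = 0.348).

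The levels were low beside those before LPS. Top2a stood at 792 ± 99.3 CPM in WT and 778 ± 195 CPM in KO before LPS, and at 165 ± 21.2 and 207 ± 96.8 CPM at 4 h. The cell cycle rises numbered 16 after scaling, 18 without KO2, 11 without WT1 or WT2, and 14 without WT3. The DNA replication rises numbered 14 after scaling, 15 without KO2 and 13 to 18 without any other library. The summed level of the cell cycle list was 642.9, 672.6 and 635.9 CPM in the WT libraries and 776.5, 813.8 and 621.3 CPM in the KO libraries. KO2 was highest and KO3 lowest of the KO libraries, the order also seen in the stromal sums, whose part in these values was not tested.

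Pclaf, which encodes a partner of PCNA at the replication fork, was among the 15 largest rises of all genes (4.33, 2.97 and 4.07 CPM in the WT libraries and 14.9, 15.9 and 10.4 CPM in the KO libraries, log2 difference 1.61 ± 0.18 (SE), adjusted p = 0.00105). Its promoter is shown with that of Mcm3, a helicase subunit gene that also rose (0.64, adjusted p = 0.00216), for the letters TTTCCCGC of the E2F site of S-phase genes, here in capitals as found on either strand. They lie at chr9:65890073-65890372 on the plus strand and chr1:20820263-20820562 on the minus strand (RefSeq, GRCm38.p6, 5′ to 3′). These letters are in 1.11% of all promoters and 2.24% of those of tested genes. They are in 2.48% of genes that rose and 1.9% of those that rose by at least 1 log2. Genes not called had them in 2.29% and genes that fell in 1.37%. They are in 5 of 22 matched DNA replication genes and in 1 of 22 matched cell cycle genes. The first listed start of Rrm2, searched in the same way, held none.
Pclaf: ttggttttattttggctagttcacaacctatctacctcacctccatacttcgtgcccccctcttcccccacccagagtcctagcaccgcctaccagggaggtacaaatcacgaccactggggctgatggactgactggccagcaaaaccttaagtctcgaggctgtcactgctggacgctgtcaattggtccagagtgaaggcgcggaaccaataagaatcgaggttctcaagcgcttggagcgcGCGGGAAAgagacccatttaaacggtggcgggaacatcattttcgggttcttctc
Mcm3: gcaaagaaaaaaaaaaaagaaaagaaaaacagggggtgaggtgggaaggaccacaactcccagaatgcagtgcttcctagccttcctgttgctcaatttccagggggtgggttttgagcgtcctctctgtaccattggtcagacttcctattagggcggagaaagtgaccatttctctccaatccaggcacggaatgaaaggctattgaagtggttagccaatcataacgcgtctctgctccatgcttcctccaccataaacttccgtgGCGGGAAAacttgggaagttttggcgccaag

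Of 22 genes of amino acid stress and the unfolded protein response, 6 rose and 6 fell, against 23.6% and 10.7% over all genes, and without KO2 6 rose and 7 fell. Sdf2l1, which encodes a cofactor of chaperones in the endoplasmic reticulum, rose, at 56.3, 71 and 63.7 CPM in the WT libraries and 109, 139.6 and 101.2 CPM in the KO libraries (0.85, adjusted p = 0.0023), as did Herpud1, a factor of protein disposal there (0.79, adjusted p = 0.00884), and Xbp1, the transcription factor of the unfolded protein response (0.42, adjusted p = 0.0025). The cytosolic heat shock genes Hspa1a (61.9, 55.2 and 61.2 CPM in the WT libraries and 33.8, 20.4 and 12.4 CPM in the KO libraries, -1.49, adjusted p = 0.00494) and Hspa1b (-1.14, adjusted p = 0.0115), near-identical copies, fell, while Hsp90aa1 (0.026, adjusted p = 0.87) and Hsph1 (-0.043, adjusted p = 0.748), of the same compartment, were not called. The chaperone gene Hspa5 was higher (0.43, adjusted p = 0.0218), a call lost after scaling and without 4 of the 6 libraries (adjusted p up to 0.0852 without WT3). Trib3, a pseudokinase gene (-0.80, adjusted p = 0.00324), Ddit3, which encodes CHOP (-0.58, adjusted p = 0.0128, 0.0568 without WT1), and Atf4, the factor of the amino acid response (-0.29, adjusted p = 0.00959), fell, Phgdh, which starts serine synthesis, rose (0.75, adjusted p = 0.0326, a call lost after scaling, 0.0935 without WT2), and Asns was at 38.2 ± 0.553 and 37.4 ± 6.96 CPM (-0.046, adjusted p = 0.799).

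Transcription factors of the ETS family and the Kruppel-like family had 3 lower, Elf4 included, and 6 higher of 25, shares near those of all genes, with 3 higher without WT1, WT2 or KO2, and 3 higher and 6 lower after scaling. Klf6, which promotes inflammatory gene expression, fell from 582 ± 12.4 to 364 ± 53 CPM (-0.69, adjusted p = 0.0023). Ets1 rose from 8.7 ± 2.57 to 15.4 ± 1.1 CPM (0.80, adjusted p = 0.0133) and Klf7 (0.69, adjusted p = 0.00892). The related factor genes Elf1 (-0.096, adjusted p = 0.23), Elf2 (-0.14, adjusted p = 0.232) and Spi1, which encodes PU.1 (-0.037, adjusted p = 0.719), were not called. Klf4 (0.16, adjusted p = 0.441) and Klf2 (0.32, adjusted p = 0.115), at 6.45 ± 1.31 and 5.04 ± 0.782 CPM in WT, were not either.

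Markers of macrophage and monocyte states also shifted. Cx3cr1, the fractalkine receptor gene, held 50.7, 58.6 and 54.3 CPM in the WT libraries and 127, 142 and 143 CPM in the KO libraries (log2 difference 1.32 ± 0.08 (SE), adjusted p = 0.000198), and Tmem119, best known from microglia, 4.4, 6.6 and 6.21 CPM in the WT libraries and 18, 22.5 and 27 CPM in the KO libraries (log2 difference 1.8 ± 0.18 (SE), adjusted p = 0.000734). F13a1, coagulation factor XIII A, had the largest rise of all named genes (3.13, 2.77 and 2.21 CPM in the WT libraries and 10.2, 55 and 36.1 CPM in the KO libraries, log2 difference 2.96 ± 0.48 (SE), adjusted p = 0.0031), with KO1 far below KO2 and KO3. The lysozyme genes Lyz2 (9038, 9148 and 8231 CPM in the WT libraries and 12552, 15519 and 17434 CPM in the KO libraries, 0.77, adjusted p = 0.00656) and Lyz1 (0.83, adjusted p = 0.00369), close copies of each other, rose. The scavenger receptor genes Mrc1 (0.63, adjusted p = 0.00579) and Cd163 (1.14, adjusted p = 0.00295) rose. Folr2 (-0.90, adjusted p = 0.0163, 0.0705 without WT1), Spp1, which encodes osteopontin (-0.81, adjusted p = 0.0169, 0.0732 without WT1), and Gpnmb (-0.69, adjusted p = 0.0195, 0.0793 without WT1 and 0.0788 without WT3) fell. The list of resident and alternative-state genes had 6 of 23 higher and 4 lower, near the shares of all genes, and its falls numbered 1 without WT1, 2 without WT3 and 7 without KO3.

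Several of the largest changes were outside the groups above. Among falls, Clic5, a chloride channel gene, held 9.16, 8.97 and 9.6 CPM in the WT libraries and 1.45, 0.748 and 0.417 CPM in the KO libraries (log2 difference -2.49 ± 0.20 (SE), adjusted p = 0.000449), the kinase gene Plk2 fell from 58.8 ± 2.72 to 17 ± 8.79 CPM (-1.85, adjusted p = 0.00254), the transcription factor gene Pou3f1 from 7.53 ± 0.577 to 1.18 ± 0.706 CPM (-2.02, adjusted p = 0.000973) and the serpin gene Serpinb6b from 8.23 ± 1.5 to 1.34 ± 0.432 CPM (-1.98, adjusted p = 0.000677). Slc28a2b, a nucleoside transporter gene with a near-identical neighbour, fell (-1.82, adjusted p = 0.00234). Among rises, Prune2 held 4.47, 2.51 and 3.11 CPM in the WT libraries and 12.8, 18.5 and 16.6 CPM in the KO libraries (log2 difference 1.97 ± 0.19 (SE), adjusted p = 0.000734), Slc9a9, an endosomal proton exchanger gene, 3.76, 4.62 and 4.14 CPM in the WT libraries and 10.5, 17.3 and 17.5 CPM in the KO libraries (1.6, adjusted p = 0.0011) and Emb, which encodes embigin, 59, 60.2 and 69.2 CPM in the WT libraries and 144, 194 and 207 CPM in the KO libraries (1.51, adjusted p = 0.000612). Adam19, a membrane protease gene, held 12.3, 11.6 and 15.4 CPM in the WT libraries and 35, 50.8 and 45 CPM in the KO libraries (log2 difference 1.65 ± 0.15 (SE), adjusted p = 0.000636). The collagen genes Col3a1 (37.4, 57.7 and 68.6 CPM in the WT libraries and 125, 337 and 94.6 CPM in the KO libraries, 1.57, adjusted p = 0.0193, 0.0796 without WT1 and 0.0525 without WT2) and Col6a2 (8.52, 14.2 and 14.4 CPM in the WT libraries and 27.1, 74.3 and 22.7 CPM in the KO libraries, 1.49, adjusted p = 0.0185, 0.077 without WT1) were also among the 15 largest rises, with KO2 highest, as in the stromal sums.

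The differences at 16 h were set beside those in the other libraries. Before LPS only Elf4 itself was called of 11498 genes (limma, with 1018 at an unadjusted p below 0.05), and at 4 h 248 of 10723 genes (2.31%) were called, 123 higher and 125 lower. A gene called at 16 h and not earlier is not shown to differ between times by that alone, so the change of the KO effect was tested over all 18 libraries. From 0 to 16 h it changed for 778 of 12058 genes (6.45%), 437 upward and 341 downward, and after median-ratio scaling 206 upward and 387 downward. From 4 to 16 h it changed for 489 (4.06%), 258 upward and 231 downward, and after scaling 204 upward and 250 downward. With the replicate number as a block the counts were 477 (301 upward, 176 downward) and 300 (138 upward, 162 downward). Both counts fell when a WT number was left out at both times, from 0 h to 167, 123 and 117 and from 4 h to 57, 96 and 26 without WT1, WT2 and WT3. Without KO3 they were 418 and 189, and without KO2 496 and 436. The balance from 0 h also turned downward without a WT number, to 40 upward and 127 downward without WT1, 34 and 89 without WT2, and 35 and 82 without WT3, and without KO2, to 187 and 309, and was 209 each way without KO3. That from 4 h was 269 upward and 317 downward without KO1.

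**Figure D4:**
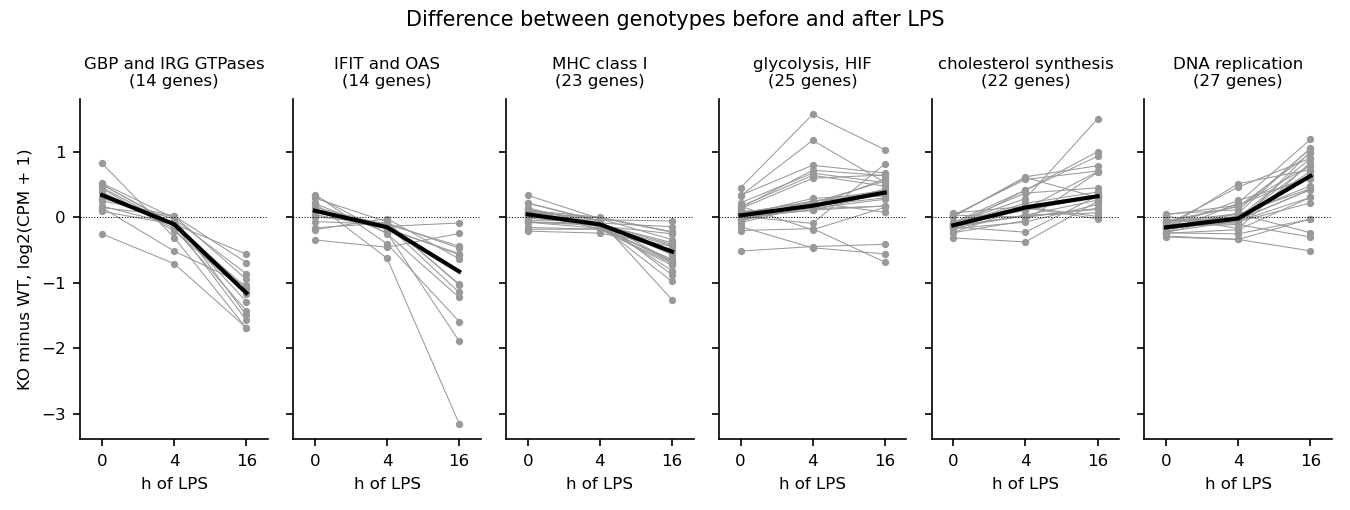
Thin lines join the differences between genotypes (y, KO minus WT, log2(CPM + 1)) of single genes at 0, 4 and 16 h of LPS (x), for list members tested at all 3 times, and the thick line joins their medians. The GTPase, IFIT and OAS and MHC class I genes lie all below 0 at 16 h, and cholesterol synthesis and DNA replication genes lie mostly above 0 at 16 h, with medians of 0.32 and 0.63.

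Of the 16 GTPase genes, 15 had a KO effect that was lower at 16 h than at 0 h and 8 than at 4 h. With the replicate number as a block these counts were 9 and 12. The medians of these genes were 0.34 log2 at 0 h and -0.12 at 4 h against -1.15 at 16 h. IFIT and OAS genes had medians of 0.098, -0.17 and -0.88 log2. Of these 15 genes, 6 were lower than at 0 h (3 with the block) and 1 than at 4 h (6 with the block). Of 50 other antiviral genes 23 were lower than at 0 h (8 with the block) and 8 than at 4 h (14 with the block). For the 8 Schlafen genes the counts were 3 (2 with the block) and 2 (3 with the block). Rsad2 stood at 11958 ± 544 CPM in WT and 10011 ± 802 CPM in KO at 4 h (-0.26, adjusted p = 0.136), and the KO effect then changed by -2.09 (adjusted p = 0.0109). Cxcl10 stood at 7168 ± 225 and 6829 ± 612 CPM at 4 h (-0.074, adjusted p = 0.684), with a change by 16 h of -2.21 (adjusted p = 0.0011). Gbp4 was already lower at 4 h (-1.23, adjusted p = 0.00183). Stat2 was at 664 ± 41.9 CPM in WT and 626 ± 37.7 CPM in KO at 4 h, and its change missed the threshold from 0 h (adjusted p = 0.0522) and from 4 h (adjusted p = 0.0578), where it passed with the block (adjusted p = 0.0313).

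Il1rn came to be lower in KO after 4 h. It stood at 3079 ± 164 CPM in WT and 3511 ± 490.1 CPM in KO at 4 h (0.18, adjusted p = 0.374), went on to 3664 ± 258 CPM in WT and dropped to 1847 ± 496 CPM in KO by 16 h, and the change passed from 4 h (-1.2, adjusted p = 0.00762) and from 0 h (-1.63, adjusted p = 0.000642). Il10 changed likewise from 4 h (-1.48, adjusted p = 0.00415), having been at 472 ± 31.5 and 555 ± 74.3 CPM. For Il1b the change of the KO effect from 4 h missed the threshold (-0.22, adjusted p = 0.765), and at 4 h it was 2303 ± 337 CPM in WT and 3465 ± 621 CPM in KO (0.59, adjusted p = 0.0647).

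**Figure D5:**
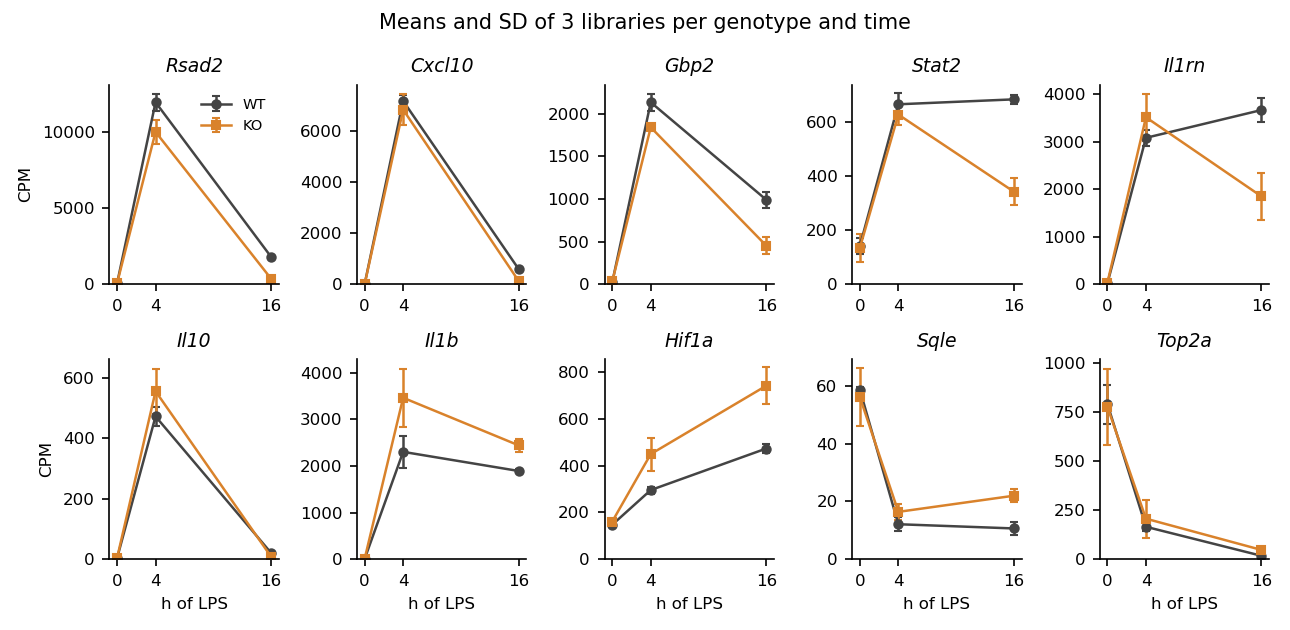
Points give the mean CPM (y, linear axis from 0) of 3 libraries per genotype at 0, 4 and 16 h of LPS (x), with bars of 1 SD, WT in grey circles and KO in orange squares. Rsad2, Cxcl10 and Gbp2 peak at 4 h in both genotypes, Stat2 and Il1rn go up slightly in WT but drop in KO between 4 and 16 h, and Hif1a is higher in KO at 4 and 16 h.

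Cholesterol synthesis genes had medians of -0.12 log2 at 0 h, 0.15 at 4 h and 0.32 at 16 h. By the test of the change, 10 of 22 rose in KO relative to 0 h (6 with the block) and 3 relative to 4 h (1 with the block). Of all genes, 6.45% and 4.06% changed in either direction. Sqle stood in WT at 58.8 ± 0.991 CPM at 0 h, 12.1 ± 2.4 CPM at 4 h and 10.6 ± 2.27 CPM at 16 h, and in KO at 56.2 ± 10.2, 16.4 ± 2.85 and 22 ± 2.19 CPM (change from 0 h 1.08, adjusted p = 0.0158). Of the cell cycle genes 5 of 30 changed upward from 0 h and 1 downward. With the block 8 of 31 changed upward from 0 h, 1 downward, and 3 upward from 4 h. Of the DNA replication genes 5 of 27 changed upward from 0 h (5 with the block) and 1 from 4 h (2 with the block). Of 26 glycolysis and HIF-1 genes 6 changed upward from 0 h (2 with the block) and 1 from 4 h (1 with the block). Hif1a was already higher in KO at 4 h (449 ± 70.5 against 295 ± 15.2 CPM, adjusted p = 0.025).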

How the data were processed

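Messenger RNA of 18 macrophage libraries was measured by polyA RNA sequencing, and the 6 libraries at 16 h are the subject here. The deposited table holds CPM values made by the authors, with 1e-04 as the lowest value. Per the submitters' processing notes, BWA, Bowtie2, MACS2, DESeq2 and Partek 10.0.21.0411 were used on the series with build mm10. Which of them made the CPM values, the annotation and whether strand was used are not given in the sources used here, so reads of a gene and its antisense partner could not be told apart. Groups come from the labels and columns were matched by their names.

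CPM columns summed to between 951225 and 954161. Steps between low values put 1 read on a common grid for 92.9 to 93.9% of values up to 20 CPM (within 0.02 reads), which gave the depth of 11.5 to 16.8 M reads per library but was too few to recover whole reads, so count models could not be run. The precision of a value is set by the spread of 3 libraries. The labels do not say that libraries are separate cultures, and the number that the file header gives each library does not settle it. No pair of 16 h libraries had identical values.

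Genes that reached 1 CPM in 3 or more of the 6 libraries were tested on log2(CPM + 1) with limma 3.58.1 (trended eBayes, 4 residual degrees of freedom) in R 4.3.3, with Benjamini-Hochberg adjustment over all tested genes at 0.05. Log2 differences computed from the deposited values understate the change of low genes. Changes of the KO effect between times were contrasts in 1 fit of all 18 libraries. The fit was also run on simulated data, and the outcome is not given here. Alternatives were a pseudocount of 0.1 or 5, no filter or 5 CPM, median-ratio scaling, all 18 libraries, no trend, the replicate number as a block, and each library left out.

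Same-numbered libraries of 1 genotype deviated together between 16 and 4 h (correlations 0.1003 to 0.396, each above 0.1; the labels state no shared source), and less evenly between 16 and 0 h (0.0203 to 0.496), so blocked counts stand beside the changes between times. The members and the gene lists were chosen with earlier results of these data known, so counts over lists are descriptions. Named genes were key genes of the study and, among called genes, the 15 largest changes each way at 5 CPM or more. The 10 largest gains and losses in CPM among called genes were named too. To these came up to 4 called members each way and 2 not called of each list, and the 5 largest changes between times each way. Other genes named, such as Hif1a, Gbp2, Tap1 and Mki67, were chosen after their values were seen. Results of some genes are not reported here. Promoters and gene positions are RefSeq's on GRCm38.p6, matched by symbol.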

Additional observations from a re-analysis of the deposited data

Results flagged for a closer look

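The difference between genotypes was tested for a change between times, and the genes named here are among those with the largest changes each way. Between 0 and 16 h, 778 genes passed. The change of the KO effect was -3.36 for Ifit1bl1, -3.15 for Gbp4, -3.14 for Lipg, -3.12 for Cxcl11 and -2.51 for Iigp1, on the log2 scale. In the same fit it was 1.73 for Pclaf, 1.53 for Plpp5, 1.44 for Ccna2 and 1.44 for Draxin. The mean levels of Lipg at 0 h were 0.683 ± 0.207 CPM in WT and 0.759 ± 0.51 CPM in KO, against 83.4 ± 10.3 and 10.5 ± 8.3 CPM at 16 h.

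Between 4 and 16 h, 489 genes passed. The change of the KO effect was -2.89 for Lipg, -2.72 for Cxcl11, -2.52 for Ifit1bl1, -2.21 for Cxcl10 and -2.13 for Clic5. It was 2.17 for Ugt1a6b, 1.66 for Plagl1, 1.64 for Mtus1, 1.47 for Pclaf and 1.46 for Prune2. Ugt1a6b belongs to a gene cluster whose members share exons, so its reads may be divided among them. Its levels were 2.57 ± 0.408 CPM in WT and 9.04 ± 2.88 CPM in KO at 16 h, and 1.18 ± 0.648 and 0.29 ± 0.0234 CPM at 4 h.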

How the results depend on the processing

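Among 296 named genes no direction reversed under any alternative run. Their calls were lost for 25 under median-ratio scaling, 22 with all 18 libraries in the fit, 12 without the filter and 12 without the variance trend, 0 with a pseudocount of 0.1 or 5 or a minimum of 5 CPM, and for between 1 (without KO3) and 50 (without WT1) when a library was left out. Genes called numbered 3836, and 3395 to 3840 under the pseudocounts, filters, 18-library fit and untrended fit. Leaving out a library gave 2117 to 4427 called, 1422 to 3115 higher and 695 to 1312 lower. Under median-ratio scaling 1463 genes were higher. For the changes of the KO effect, leaving out a library number at both times gave 117 to 1118 genes from 0 h and 26 to 586 from 4 h. The causes were not tested. With the replicate block, 3421 genes were called at 16 h (2338 higher, 1083 lower), 477 changed from 0 h and 300 from 4 h, where 778 and 489 had without it. Same-numbered WT and KO libraries at 16 h did not deviate together (correlations of 0.04, 0.14 and -0.18), so the numbers were not taken as pairs within 16 h, and a call lost under the block is not read as a weaker effect. The edgeR and DESeq2 alternatives were not run, since whole reads could not be recovered. With 3 libraries a group and at most 16.8 M reads each, genes under 1 CPM in most libraries were not tested.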

Other observations

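Surface receptors and adhesion genes moved in both directions at 16 h, 11 lower and 5 higher of 30, against 10.7% and 23.6% over all genes. The rises numbered 2 without WT1 or WT2 and after scaling. Slamf7, a receptor that regulates phagocytosis, held 581, 474 and 514 CPM in the WT libraries and 266, 182 and 182 CPM in the KO libraries (log2 difference -1.33 ± 0.15 (SE), adjusted p = 0.000973). The G protein regulator gene Rgs1 fell from 29.6 ± 7.7 to 10.3 ± 2.1 CPM (-1.42, adjusted p = 0.00181), and Cd83, a marker of activated antigen-presenting cells, from 8.86 ± 1.22 to 3.06 ± 1.28 CPM (-1.32, adjusted p = 0.0032). Vill, which encodes a villin-like protein, was lower at 16 h (-1.52, adjusted p = 0.00114) and stood at a like difference at 0 h (-1.67, adjusted p = 0.102) and 4 h (-1.31, adjusted p = 0.0298).

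Genes of iron handling and oxidative stress had 5 falls and 5 rises of 23, against 10.7% and 23.6% over all genes, with 3 rises without KO2, 0 rises without WT1, 2 without WT2, 1 without WT3 and 2 after scaling. Slc40a1, which encodes ferroportin, the iron exporter, held 18.5, 24.9 and 27.6 CPM in the WT libraries and 12.6, 6.29 and 10.5 CPM in the KO libraries (log2 difference -1.22 ± 0.23 (SE), adjusted p = 0.00509), and the groups did not overlap. Its KO effect fell from 0 h (-1.44, adjusted p = 0.0141) and from 4 h (-1.5, adjusted p = 0.0154). The autophagy receptor gene Sqstm1 fell from 704 ± 15.2 to 401 ± 40.8 CPM (-0.82, adjusted p = 0.000803), and Hmox1, heme oxygenase, from 2515 ± 88.2 to 1882 ± 177 CPM (-0.42, adjusted p = 0.0108, 0.0504 without WT2).

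Lysosomal genes had 4 falls and 0 rises of 21, against 10.7% and 23.6% over all genes, and 7 falls after scaling or without KO3. Psap, which encodes the precursor of the saposins, fell from 4585 ± 277 to 3629 ± 419.6 CPM (-0.34, adjusted p = 0.0475, a call lost without 5 of the 6 libraries), and Grn, progranulin, from 2869 ± 43.5 to 2347 ± 209.7 CPM (-0.29, adjusted p = 0.04, a call lost without 4). In the complement and Fc receptor list 3 of 19 rose and 3 fell, against 23.6% and 10.7% over all genes, with 6 rises without KO2 and 1 fall without WT1 or WT3. C3, the central complement component, held 1958 ± 191 CPM in WT and 1267 ± 155 CPM in KO (-0.63, adjusted p = 0.00432), and Cfp, which encodes properdin, 648 ± 38.4 and 941 ± 59.1 CPM (0.54, adjusted p = 0.00213).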
